A study of Homo sapiens with 6 samples.

Results

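The interleukin 1 and interleukin 6 families were followed in SUM-159 cells that carried SH3GL2 or an empty vector. The genes were the ligands IL1A, IL1B, IL18, IL6, LIF and IL11 and the receptor genes IL1R1, IL1RAP, IL6ST and LIFR. They were chosen by name, with earlier results of these data known. Every probe set that the platform annotation gives to 1 of them alone was taken. This gave 19 of 22215 probe sets, for 10 of the 11963 genes that have their own probe set. The 9 ligand probe sets cover 6 genes and the 10 receptor probe sets cover 4 genes. No probe set shared with another gene carried one of these names. SUM-159 is a triple-negative breast cancer cell line. The SH3GL2 group was 3 arrays of cells stably transfected with SH3GL2, which encodes the endocytic protein endophilin A1, in pcDNA 3.1, and the empty vector group was 3 arrays of cells stably transfected with the vector alone. Both were kept under G418, and whether each group was 1 clone or a pool is not stated for these cells. Nor is it stated whether the triplicates were separate cultures, so the tests measure the spread between these arrays, which may be technical.

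Interleukin 1 alpha and interleukin 1 beta bind the receptor IL1R1, which then recruits IL1RAP and signals through MYD88 and IRAK kinases to NF-kB. The interleukin 6 family shares the signaling receptor gp130, encoded by IL6ST, which works with JAK kinases and STAT3, and LIF needs LIFR as well. Interleukin 1 is known to induce the genes of interleukin 6, LIF and several chemokines in epithelial and stromal cells, and interleukin 6 is known as an autocrine factor of basal-like breast cancer cells.

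The values are log2 signals, so a difference of 1 is a doubling. Array medians ran from 6.98 to 7.03. Genes of other organs (52 genes, 85 probe sets) had a median log2 signal of 5.32 and a 95th percentile of 7.27, and a group mean below that percentile is called here within the reference range. SH3GL2 itself had 3.26 ± 0.09 in SH3GL2 arrays and 3.22 ± 0.04 in empty vector arrays (SD, n = 3 each) on its only probe set. Both means lay under the reference median, with a log2 fold change of 0.03 (adjusted p = 0.909 in limma). No rise of the transfected gene was seen, so it could not check the labels. Whether this probe set reads the transfected copy was not tested. All 10 markers expected to be high in mesenchymal triple-negative cells were above the reference range, and 4 of these genes were lower in SH3GL2 arrays. Of 10 markers expected to be low, 3 (ERBB2, GATA3 and XBP1) were above it. Of 17 leukocyte and myeloid markers, 0 were above it and 0 passed limma (0 also at an unadjusted p under 0.05), and their mean log2 signal was 5.22 to 5.28 over the SH3GL2 arrays and 5.24 to 5.28 over the empty vector arrays. Of 7 endothelial markers 1 was, ERG, and only by its SH3GL2 mean of 7.28, just over the cut-off of 7.27. The empty vector mean of ERG, 6.92, was within the range, and ERG was higher in SH3GL2 arrays by 0.36 on the log2 scale. The mean log2 signal of the 7 markers was 5.95 to 6.05 in SH3GL2 arrays and 5.85 to 6.01 in empty vector arrays. What this ERG signal came from, and its part in the results, was not tested.

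In the arrays labelled SH3GL2 the genes of interleukin 1 alpha, interleukin 1 beta, interleukin 6 and LIF rose, those of interleukin 18 and interleukin 11 did not pass, and no receptor gene passed. Of the 19 probe sets, 5 were higher and 0 were lower at an adjusted p under 0.05 in limma, with adjustment over all 22215 probe sets. Across the array 1.99% of probe sets were higher and 2.18% were lower. On the brightest probe set of each gene, 4 of the 10 genes were higher, against 2.54% of all genes, and none was lower, against 2.36% of all genes. As the genes were chosen with earlier results known, these shares are description and not independent support. At an unadjusted p under 0.05, 5 probe sets were lower in limma, mostly on IL6ST and otherwise on IL18 and IL1R1. The share of all probe sets at that unadjusted p was not counted, so this number has nothing to be set against. A one-way analysis of variance called 0 of the 19 in either direction after adjustment, and 33 higher and 44 lower of all 22215. The arrays measured bulk RNA, in which more producing cells and more RNA per cell cannot be told apart. The 5 calls were lost when signals were floored at the reference median of 5.32. All values of these 5 probe sets lay above that floor, so it left their log2 fold changes as they were.

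**Figure D1:**
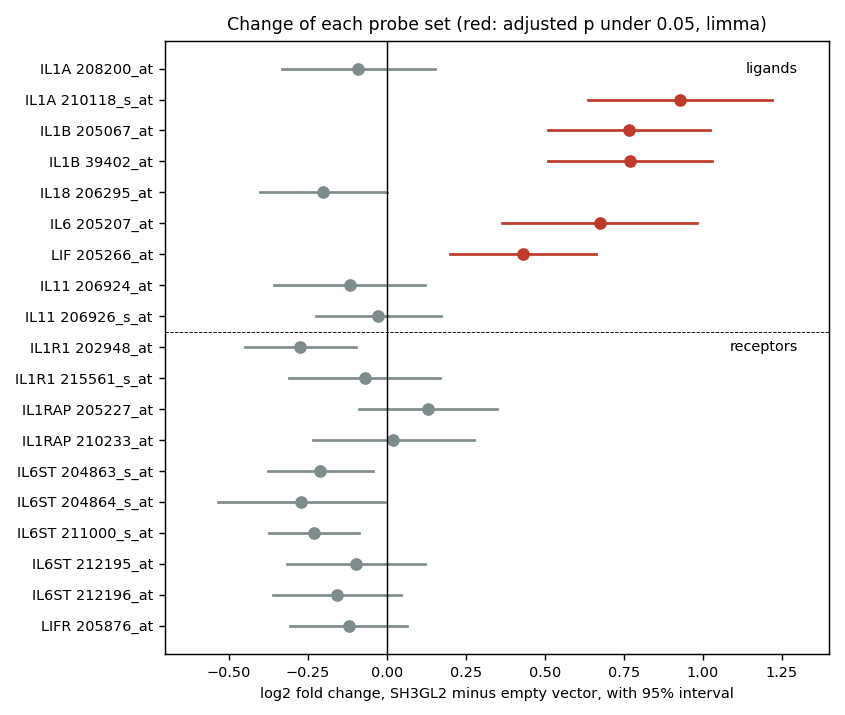
Log2 fold change of each of the 19 probe sets, SH3GL2 minus empty vector, with its 95% interval from limma. The 5 red points, for IL1A, IL1B, IL6 and LIF, lie between 0.43 and 0.93, and the 14 gray ones between -0.27 and 0.13.

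IL1A, which encodes interleukin 1 alpha, a cytokine that also acts inside the nucleus and as an alarm signal from damaged cells, showed the largest change among these genes. Its probe set 210118_s_at had log2 signals of 11.01, 10.34 and 10.92 in SH3GL2 arrays, against 9.78, 9.76 and 9.95 in empty vector arrays. Every SH3GL2 array was above every empty vector array, and replicate 2 was the lowest of the SH3GL2 arrays (p = 0.1 in an exact two-sided permutation test, which 3 arrays against 3 cannot go below). IL1A rose by 0.93 on the log2 scale (SE 0.13, adjusted p = 0.00128 in limma), or 1.90-fold. Both group means were above the reference range. The other probe set of IL1A, 208200_at, had 4.84 ± 0.12 in SH3GL2 arrays and 4.93 ± 0.18 in empty vector arrays (SD, n = 3 each), both under the reference median, with a difference of -0.09 (adjusted p = 0.785 in limma), too dim for a change to be read from it.

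IL1B, which encodes the secreted interleukin 1 beta, rose on both of its probe sets. On 205067_at it had 8.0, 7.62 and 8.15 in SH3GL2 arrays, against 7.09, 7.19 and 7.19 in empty vector arrays. On 39402_at it had 7.80, 7.63 and 8.13 in SH3GL2 arrays, against 7.08, 6.96 and 7.21 in empty vector arrays. The groups did not overlap on either, and replicate 2 was again the lowest SH3GL2 array on each. The increase was 0.77 on the log2 scale on both (SE 0.12 for each, adjusted p = 0.00203 and 0.00214 in limma). The SH3GL2 means were above the reference range on both probe sets and the empty vector means, 7.16 and 7.08, within it, so these folds start from a level that genes of other organs also reach.

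IL6, the founding cytokine of its family, rose by 0.67 on the log2 scale (SE 0.14, adjusted p = 0.0166 in limma). Its log2 signals were 7.59, 7.34 and 8.04 in SH3GL2 arrays, against 6.89, 7.04 and 7.02 in empty vector arrays. The groups did not overlap, and the SD was 0.35 in SH3GL2 arrays and 0.08 in empty vector arrays. The call was lost without SH3GL2 replicate 1 (adjusted p = 0.0501), without SH3GL2 replicate 3 (adjusted p = 0.0523) and without empty vector replicate 1 (adjusted p = 0.0695 in limma), with log2 fold changes of 0.71, 0.48 and 0.63. It was also lost in eBayes without the intensity trend (adjusted p = 0.0519).

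LIF, a cytokine of the same family that keeps stem cells undifferentiated in mice, rose least. Its log2 signals were 7.38, 7.30 and 7.69 in SH3GL2 arrays, against 6.98, 6.98 and 7.12 in empty vector arrays, with no overlap. LIF was higher by 0.43 on the log2 scale (SE 0.11, adjusted p = 0.0405 in limma). This call held without SH3GL2 replicate 2 and was lost without each of the other arrays, at an adjusted p of 0.0729 without SH3GL2 replicate 1, 0.200 without SH3GL2 replicate 3, and 0.112, 0.142 and 0.0575 without empty vector replicates 1, 2 and 3 in limma. It too was lost in eBayes without the trend (adjusted p = 0.0727). The empty vector means of IL6 and LIF, 6.98 and 7.03, were within the reference range.

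IL18 and IL11 did not pass. IL18, whose product, like interleukin 1 beta, is released from a precursor by caspase 1, had 9.04, 9.13 and 9.04 in SH3GL2 arrays, against 9.08, 9.25 and 9.48 in empty vector arrays. The groups overlapped, and the log2 fold change of -0.20 had a 95% interval of -0.40 to -4.54e-04 (adjusted p = 0.314 in limma). IL11, a cytokine linked to bone metastasis of breast cancer, had 4.27 ± 0.12 in SH3GL2 arrays and 4.39 ± 0.18 in empty vector arrays on 206924_at, and 5.5 ± 0.04 in SH3GL2 arrays and 5.53 ± 0.07 in empty vector arrays on 206926_s_at (SD, n = 3 each). All of these means were within the reference range, so a decrease of IL11 could not have been seen.

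**Figure D2:**
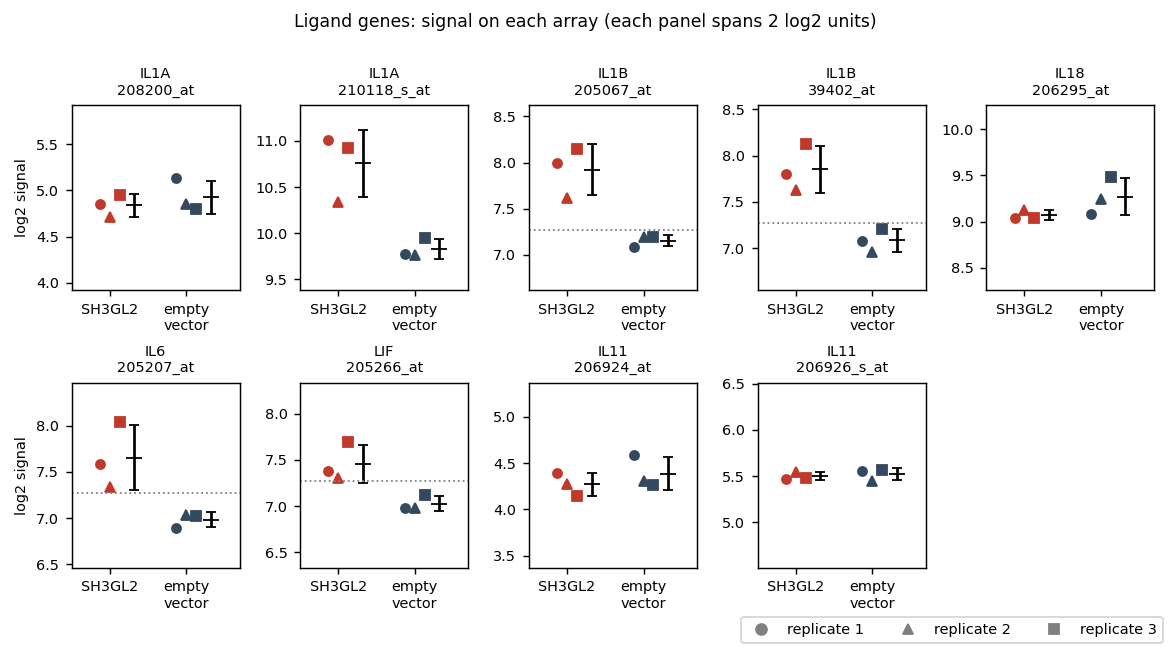
Log2 signal of the 9 ligand probe sets on each array, with SH3GL2 in red and empty vector in blue, a marker shape per replicate, and the mean with its SD (n = 3) beside the points. The dotted line is the 95th percentile of the genes of other organs (7.27), and the SH3GL2 points lie above all empty vector points for IL1A 210118_s_at, both IL1B probe sets, IL6 and LIF.

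The sequence before the start site was read for motifs of transcription factors that are known to induce cytokine genes. RefSeq promoter windows (GRCh38.p14, 250 bases before to 50 after the start) were at hand for 8 of the 10 genes, and those of IL1A, IL1B and IL6 are shown without the 50 bases after the start. Capitals mark matches, on either strand, to the NF-kB consensus, the AP-1 site TGAGTCA, the STAT site TTCNNNGAA or the cyclic AMP element TGACGTCA. No match overlapped another in these windows. The stretch of IL1A, from the first of its 2 annotated windows, is chr2:112784494-112784743, that of IL1B is chr2:112836780-112837029, both on the minus strand, and that of IL6 is chr7:22726950-22727199 on the plus strand.
IL1A: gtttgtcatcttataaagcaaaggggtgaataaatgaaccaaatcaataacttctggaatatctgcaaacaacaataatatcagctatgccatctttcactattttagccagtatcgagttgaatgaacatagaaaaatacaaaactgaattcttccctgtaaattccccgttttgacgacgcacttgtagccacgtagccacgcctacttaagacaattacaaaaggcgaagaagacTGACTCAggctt
IL1B: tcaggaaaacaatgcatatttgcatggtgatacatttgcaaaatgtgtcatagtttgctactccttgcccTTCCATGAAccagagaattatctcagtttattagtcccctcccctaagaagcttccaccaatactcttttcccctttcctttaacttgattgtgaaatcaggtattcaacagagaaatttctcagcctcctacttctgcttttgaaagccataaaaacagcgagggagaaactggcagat
IL6: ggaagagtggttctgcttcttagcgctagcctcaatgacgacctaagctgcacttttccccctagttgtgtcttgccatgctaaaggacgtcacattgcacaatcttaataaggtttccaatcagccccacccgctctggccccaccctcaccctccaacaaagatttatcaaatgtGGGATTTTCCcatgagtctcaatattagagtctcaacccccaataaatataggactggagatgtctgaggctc
IL1A held an AP-1 site that began 12 bases before the start, and a further one in the bases after it that are not shown. IL1B held a STAT site that began 180 bases before the start, and IL6 an NF-kB match that began 73 bases before it. Over all 35116 windows the NF-kB consensus was found in 5.91%, the AP-1 site in 4.95%, the STAT site in 7.66% and the cyclic AMP element in 1.85%. The 3 genes thus did not share a match in these windows, which describes the letters only. IL11, which did not pass, held an AP-1 site that began 96 bases before its start, and LIFR and IL1R1 held STAT sites in some of their windows. LIF and IL18 were not analysed for motifs here.

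The receptor genes did not pass the test, and 8 of their 10 probe sets had a negative log2 fold change. Of these 8, 5 were probe sets of IL6ST alone, so they are not separate genes. The share of negative changes over the array was not counted, and the median log2 fold change of all genes was 0.02. IL1R1, the receptor that both interleukin 1 ligands bind, had 8.45, 8.60 and 8.42 on 202948_at in SH3GL2 arrays, against 8.66, 8.86 and 8.77 in empty vector arrays. All SH3GL2 arrays were below all empty vector arrays. The log2 fold change was -0.27 (95% interval -0.45 to -0.10, adjusted p = 0.0883 in limma). Of 15 alternatives it passed in 1 only, without SH3GL2 replicate 2 (-0.33, adjusted p = 0.0449 in limma). Leaving out other single arrays gave an adjusted p of up to 0.319 in limma. The other IL1R1 probe set, 215561_s_at, had means of 4.53 in SH3GL2 arrays and 4.60 in empty vector arrays, both under the reference median. IL1RAP, the shared partner chain of the interleukin 1 and interleukin 33 receptors, had 8.43, 8.13 and 8.43 on 205227_at in SH3GL2 arrays, against 8.26, 8.04 and 8.30 in empty vector arrays. These overlapped, with a log2 fold change of 0.13 and a 95% interval of -0.09 to 0.35. On 210233_at the log2 fold change of IL1RAP was 0.02 (95% interval -0.23 to 0.27), within the reference range.

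IL6ST, the gp130 chain through which the whole interleukin 6 family signals, had 5 probe sets, and none passed. On 211000_s_at it had 9.32, 9.28 and 9.41 in SH3GL2 arrays, against 9.55, 9.53 and 9.62 in empty vector arrays, with no overlap. The log2 fold change there was -0.23 (95% interval -0.37 to -0.09, adjusted p = 0.0787 in limma). Of 15 alternatives it passed in 1 only, quantile normalization (adjusted p = 0.0493 in limma). Leaving out single arrays gave an adjusted p of 0.134 to 0.226 in limma. On 204863_s_at the groups also stood apart, at 9.05 ± 0.10 in SH3GL2 arrays and 9.26 ± 0.09 in empty vector arrays (SD, n = 3 each), a difference of -0.21 (adjusted p = 0.177 in limma). The other 3 probe sets overlapped between the groups. The brightest of all, 212195_at, had 12.21 ± 0.24 in SH3GL2 arrays and 12.30 ± 0.14 in empty vector arrays (SD, n = 3 each). Its log2 fold change was -0.10 (adjusted p = 0.736 in limma). On 212196_at the log2 fold change was -0.16. On 204864_s_at, with both means within the reference range, it was -0.27. LIFR, the chain that pairs with gp130 for LIF, had 6.94, 6.87 and 6.79 in SH3GL2 arrays, against 6.96, 6.98 and 7.02 in empty vector arrays. These values did not overlap but lay within the reference range, with a log2 fold change of -0.12 (95% interval -0.31 to 0.07). Non-overlap alone is common on these arrays. All SH3GL2 arrays were above all empty vector arrays at 10.5% of probe sets and below them at 8.97%, and among the 19 probe sets at 5 and 4.

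**Figure D3:**
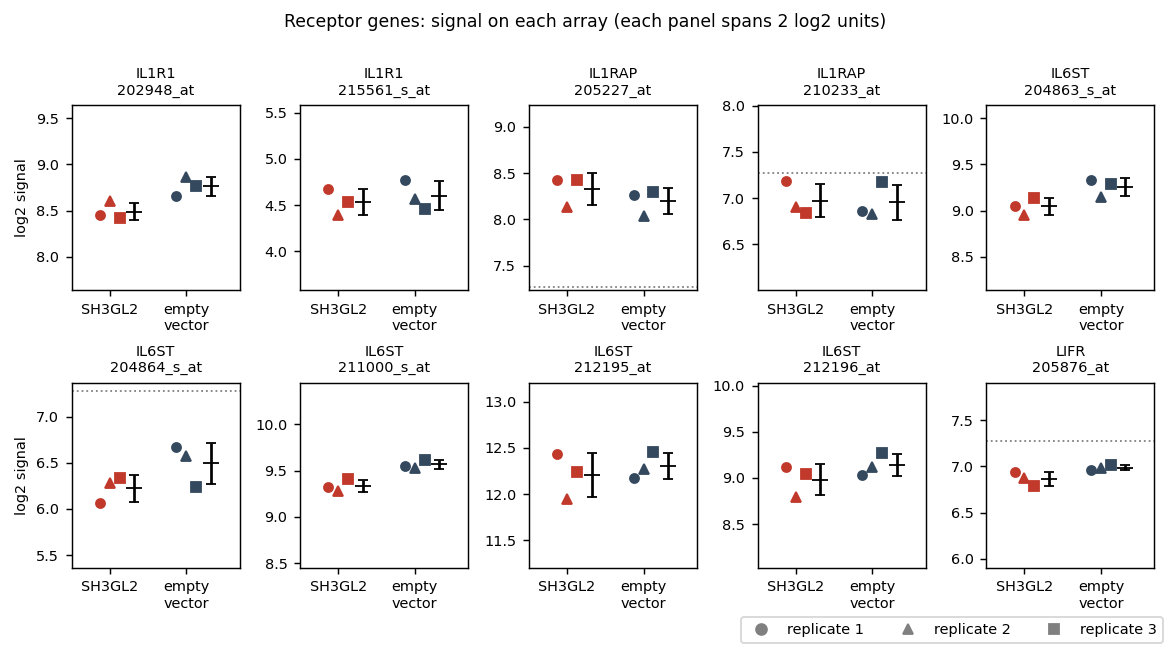
Log2 signal of the 10 receptor probe sets on each array, drawn as for the ligands. SH3GL2 points lie below all empty vector points for IL1R1 202948_at, IL6ST 204863_s_at and 211000_s_at, and LIFR, by less than 0.5 log2 units between the means.

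Other genes of both pathways were taken from 7 lists, with 114 genes measured, each on its brightest probe set. The lists too were chosen with earlier results of these data known, so their counts are description only. Over the lists 15 genes passed limma and all 15 were higher, where 2.54% of all genes were higher and 2.36% lower. The analysis of variance called 1 of the list genes, CASP1, which was higher, and 0 lower. The share of all genes at an unadjusted p under 0.05 was not counted, so the unadjusted list counts have nothing to be set against. The median log2 fold change of all genes was 0.02. Among 15 other ligands, antagonists and receptors of the interleukin 1 family, 1 was higher and 0 were lower, with a median log2 fold change of 0.06. At an unadjusted p under 0.05 in limma, 2 were higher and 0 lower. The gene that passed was IL1RL1, the receptor of interleukin 33. It had 9.0, 8.57 and 9.05 on 207526_s_at in SH3GL2 arrays, against 7.84, 7.84 and 8.08 in empty vector arrays, with no overlap. This was a rise of 0.95 on the log2 scale (SE 0.12, adjusted p = 3.96e-04 in limma). The call was lost with flooring (adjusted p = 0.0877 in limma), which left these values unchanged, and in the analysis of variance (adjusted p = 0.172). Its other probe set, 210442_at, had means of 4.79 in SH3GL2 arrays and 4.70 in empty vector arrays, under the reference median. IL33 itself had 3.33 in SH3GL2 arrays and 3.27 in empty vector arrays, also under it, and the antagonist IL1RN was within the reference range on all of its probe sets. In GRCh38.p14, IL1R2, IL1R1, IL1RL2, IL1RL1, IL18R1 and IL18RAP follow each other on chromosome 2, and of these 6 receptor genes IL1RL1 alone passed. IL18R1 differed by 0.31 on the log2 scale (adjusted p = 0.211 in limma), and without empty vector replicate 3 it passed, at 0.45 with an adjusted p of 0.0499.

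IL1RL1 was also the gene whose 6 array values lay closest to those of IL1A. With each array centred on the mean of the empty vector arrays, the root mean square difference from IL1A 210118_s_at was 0.0751 for IL1RL1, 0.127 for the chemokine gene CXCL2, 0.151 for the sialyltransferase gene ST6GAL1, 0.155 for IL1B 205067_at and 0.160 for OASL, an interferon-induced gene. These 5 were the closest probe sets with 1 gene symbol, over 6 arrays. Likeness of this kind includes the difference between the groups, which all of them share.

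Of 13 genes that process interleukin 1 and interleukin 18, 1 was higher and 0 were lower, and the median log2 fold change was 0.05. At an unadjusted p under 0.05 in limma, 3 were higher and 0 lower. The gene that passed was CASP1, the protease that cuts the precursors of interleukin 1 beta and interleukin 18. On 209970_x_at it had 10.45, 10.43 and 10.48 in SH3GL2 arrays, against 9.97, 10 and 9.99 in empty vector arrays. The arrays of a group lay close together, and CASP1 rose by 0.47 on the log2 scale (SE 0.06, adjusted p = 2.88e-04 in limma). CASP1 was higher on 4 of its 5 probe sets. CASP4 had 0.27 (adjusted p = 0.0681 in limma) and PYCARD, the adaptor that activates caspase 1, had 0.11 within the reference range. Of 14 genes that carry the signal from the interleukin 1 receptor, none passed in either direction (before adjustment 2 were higher and 0 lower at p under 0.05, and the analysis of variance called 0 after it), with MYD88 at 0.05 and IRAK1 at 0.08 on the log2 scale.

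Genes that interleukin 1 induces through NF-kB formed the list with most calls. Of 21 measured, 10 were higher and 1 lower at an unadjusted p under 0.05 in limma. After adjustment 9 were higher and 0 were lower, against 2.54% and 2.36% of all genes, and the median log2 fold change was 0.18. The list was chosen with earlier results of these data known, so this share is not independent support. CXCL8, which encodes interleukin 8, had 12.31, 11.64 and 12.20 on 202859_x_at in SH3GL2 arrays, against 10.71, 10.94 and 10.94 in empty vector arrays. Its log2 fold change was 1.19 there and 1.42 on its other probe set. The neutrophil chemokine genes CXCL2, CXCL3 and CXCL1 had 1.00, 0.78 and 0.78. CXCL1 had means of 7.04 in SH3GL2 arrays and 6.26 in empty vector arrays, both within the reference range, as were both means of VCAM1. The other 5, chosen after their values were seen, were the feedback inhibitors TNFAIP3 (0.45) and NFKBIA (0.26), the transcription factor gene CEBPD (0.33) and the adhesion genes ICAM1 (0.50) and VCAM1 (0.54). PTGS2, the inducible cyclooxygenase, had 0.48 with both means under the reference median (adjusted p = 0.0829 in limma), and passed without SH3GL2 replicate 2 (0.61, adjusted p = 0.0286). Leaving out empty vector replicate 2 or SH3GL2 replicate 3 gave 5 calls each time, flooring gave 1 and the analysis of variance gave 0. All values of the 9 genes on their brightest probe sets lay above the floor.

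**Figure D4:**
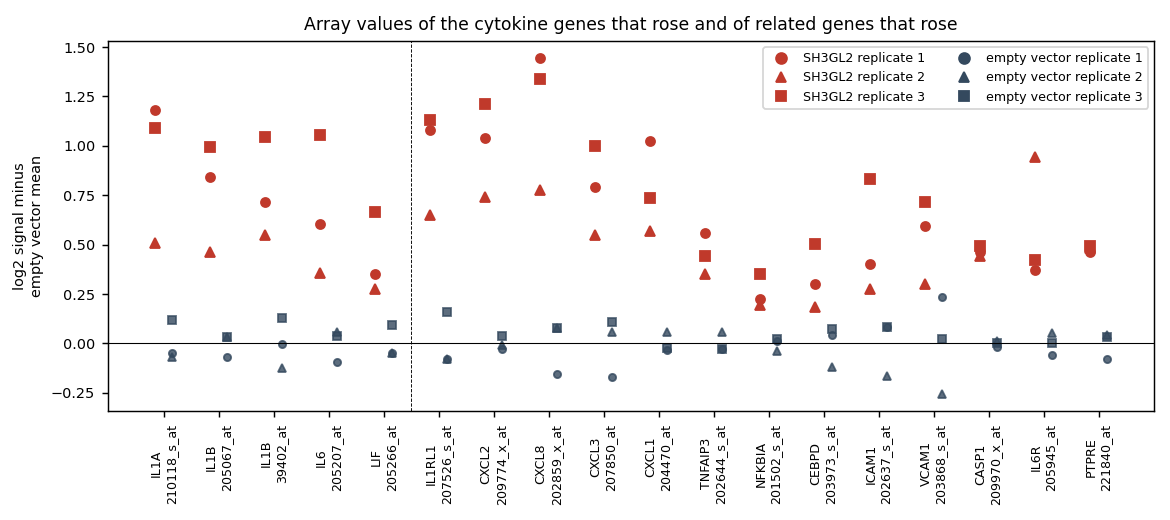
Log2 signal of each array minus the empty vector mean, for the 5 cytokine probe sets that rose (left of the dashed line) and for IL1RL1, the 9 interleukin 1 induced genes that rose, CASP1, IL6R and PTPRE. The red triangle, SH3GL2 replicate 2, is the lowest red point for all 5 cytokine probe sets and all 9 induced genes, and the highest for IL6R.

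The SH3GL2 arrays were not alike in these genes. Replicate 2 was the lowest SH3GL2 array on all 5 cytokine probe sets that rose and on all 9 interleukin 1 induced genes that rose. Among all 441 probe sets that were higher, replicate 2 alone was the lowest on 134, or 30.4%, replicate 1 alone on 231 and replicate 3 alone on 53. Among probe sets that did not pass, replicate 2 was the lowest for some, such as IL6ST 212195_at (11.95, against 12.43 and 12.24). For others it was the highest, such as IL1R1 202948_at (8.60, against 8.45 and 8.42). The place of SH3GL2 replicate 2 over all probe sets was not counted. IL1A stood 0.51 above the empty vector mean on that array, against 1.18 and 1.09 on SH3GL2 replicates 1 and 3. IL6 stood 0.36 above it there, against 0.61 and 1.06 on SH3GL2 replicates 1 and 3. Without SH3GL2 replicate 2 the IL1A log2 fold change was 1.14 and that of IL6 was 0.83.

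Of 10 other ligands and receptors of the interleukin 6 family 1 was higher and 0 were lower, with a median log2 fold change of 0.08. The counts were also 1 and 0 at an unadjusted p under 0.05 in limma. IL6R, the chain that binds interleukin 6 before gp130 joins, had 7.34, 7.91 and 7.39 on 205945_at in SH3GL2 arrays, against 6.91, 7.02 and 6.97 in empty vector arrays. Replicate 2 was the highest SH3GL2 array here. The rise was 0.58 on the log2 scale (SE 0.13, adjusted p = 0.0247 in limma). The empty vector mean of 6.97 was within the reference range, and the call was lost without empty vector replicates 1, 2 and 3 (adjusted p = 0.0852, 0.0635 and 0.0735). The other IL6R probe set was under the reference median. OSMR, the oncostatin M receptor, had 0.09, and IL11RA, the receptor that interleukin 11 needs, had 0.13, both within the reference range.

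Of 18 genes of gp130 signaling and its inhibitors, 1 was higher and 0 were lower, with a median of 0.02. At an unadjusted p under 0.05 in limma, 3 were higher and 4 lower. PTPRE, a tyrosine phosphatase reported to restrain JAK signaling, had 7.84, 7.86 and 7.87 in SH3GL2 arrays, against 7.30, 7.42 and 7.41 in empty vector arrays, which was 0.48 higher on the log2 scale (SE 0.08, adjusted p = 0.00315 in limma). STAT3 had 0.22 (adjusted p = 0.134 in limma) and JAK1 had 0.09. The 3 genes higher before adjustment were PTPRE, STAT3 and PIAS3 (0.22). The 4 genes lower before adjustment were ERBIN (-0.31), SOCS1 (-0.23), JAK2 (-0.25) and SOCS2 (-0.33), each on its brightest probe set. JAK2 was within the reference range on both of its probe sets. SOCS3, the feedback inhibitor that STAT3 induces, had log2 fold changes of 0.09, -0.01 and -0.12 on 3 probe sets, all within the reference range. Of 23 STAT3-induced and acute phase genes, 2 were higher and 0 were lower, with a median of 0.09. At an unadjusted p under 0.05 in limma, 5 were higher and 0 lower. The 2 that passed were ORM1 and IER3. ORM1, encoding a plasma acute phase protein, had 0.52 (adjusted p = 0.0236 in limma), with both means within the reference range. IER3, an early response gene, had 0.26 (adjusted p = 0.0349 in limma). Leaving out empty vector replicate 2 or 3 gave 0 calls, and leaving out empty vector replicate 1, SH3GL2 replicate 1 or SH3GL2 replicate 3 gave 1. JUNB and MYC had 0.33 (adjusted p = 0.0817) and 0.15 (adjusted p = 0.32 in limma). Without SH3GL2 replicate 2, MYC was higher by 0.24 (adjusted p = 0.0120 in limma).

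**Figure D5:**
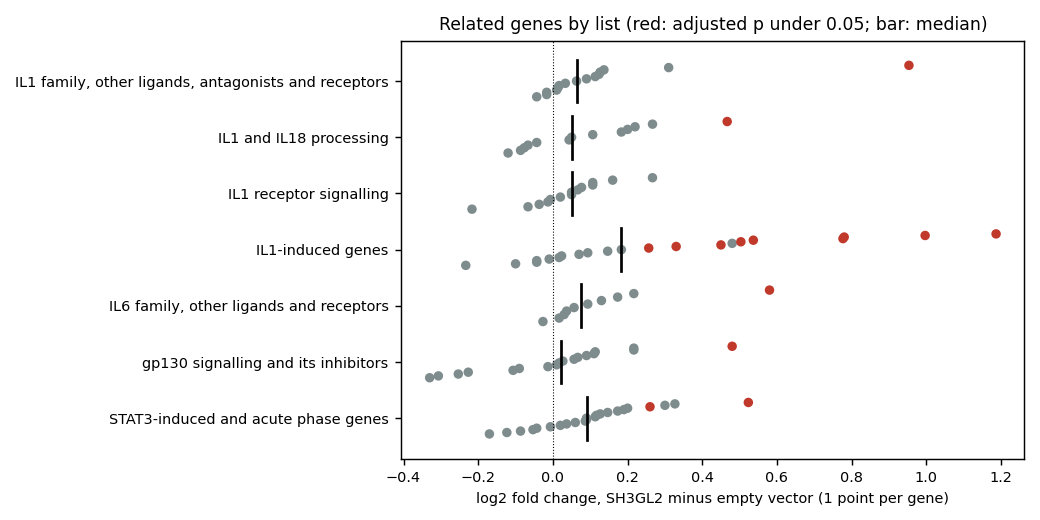
Log2 fold change of the 114 related genes in 7 lists, SH3GL2 minus empty vector, 1 point per gene on its brightest probe set, with a bar at each list's median. Red points passed the test, all of them to the right of 0, and 9 of the 15 belong to the interleukin 1 induced genes.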

How the data were processed

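Total RNA of SUM-159 cells was hybridized to Affymetrix human expression arrays, 3 with SH3GL2 and 3 with empty vector, and the authors scanned and analysed them with GCOS software. The deposited values are probe set signals taken as log2 from their range (2.82 to 15.31). The submitters' processing notes name MAS5 without a version, and whether or how arrays were scaled to each other is not given in the sources used here. Scaling could shift all values of an array.

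Values were used as deposited. Of 22277 probe sets, 62 controls were left out. The platform annotation gave 1 symbol to 19064, several to 1043 and none to 2108, and 0 symbols differed from RefSeq names (GRCh38.p14). Groups were compared with limma 3.58.1 in R 4.3.3 (two-sided; lmFit, then eBayes with a trend on intensity) and adjusted by Benjamini-Hochberg over 22215 probe sets at 0.05. Errors beside means are SD, SE is limma's standard error, and 95% intervals are limma's. The number of arrays limits the precision.

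The genes and lists were chosen with earlier results of these data known. Named were all probe sets of the 10 genes, and of each list up to 4 genes with the smallest adjusted p under 0.05. Others named were picked after their values were seen. Alternatives were quantile normalization, median centring, 16 added before the logarithm, a floor at the reference median, the brighter part of probe sets, eBayes without a trend, eBayes with a robust prior, analysis of variance per probe set, a replicate block, the mean of a gene's probe sets and leaving out each array. Figures used Python 3.11.15 and matplotlib 3.10.9.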

Additional observations from a re-analysis of the deposited data

How the results depend on the processing

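The direction of the 5 cytokine calls held under all 15 alternatives, but many of these could not have turned it. The groups did not overlap on these probe sets, so leaving out 1 array could not turn it. The floor lay below all their values. The floor, the brighter part of probe sets, the replicate block and the other tests left the difference of the means as it was. IL1A 210118_s_at and both IL1B probe sets kept their calls in 13 of 15 (adjusted p up to 0.0183 in limma without any 1 array), IL6 in 9 and LIF in 7. The cause of lost calls was not tested. With signals floored at the reference median, 0 of the 19 probe sets were higher (adjusted p = 0.146 for IL1A, 0.124 and 0.128 for IL1B, 0.246 for IL6 and 0.243 for LIF), 128 probe sets of the array were higher and 154 lower, and 0 other interleukin 1 family genes, 1 interleukin 1 induced gene, 0 other interleukin 6 family genes and 0 STAT3-induced genes were higher. In the analysis of variance 0 of the 19 were higher (adjusted p = 0.209 to 0.325), with 33 probe sets higher and 44 lower on the array, and 0 genes were higher in each of the interleukin 1 family, interleukin 1 induced, interleukin 6 family, gp130 and STAT3-induced lists. Without a trend 3 of the 19 were higher, the IL6 and LIF calls being lost, with 270 on the array, 5 interleukin 1 induced, 0 interleukin 6 family and 1 STAT3-induced gene. Quantile normalization gave 1 of the 19 lower (IL6ST 211000_s_at), the brighter part of probe sets gave 2 processing genes higher (with CASP4, adjusted p = 0.0346), and the mean of a gene's probe sets gave 0 interleukin 6 family genes higher and 1 gp130 gene lower (JAK2, -0.33). Without 1 array, 3 to 5 of the 19 were higher and 0 to 1 lower, 184 to 376 probe sets were higher and 296 to 437 lower, and the lists gave 1 to 2 interleukin 1 family, 5 to 10 interleukin 1 induced, 0 to 1 interleukin 6 family and 0 to 2 STAT3-induced genes higher. Directions turned without 1 array for probe sets that did not pass: IL1A 208200_at (-0.15 to 0.012), IL1R1 215561_s_at (-0.14 to 0.015), IL1RAP 210233_at (-0.083 to 0.13) and IL6ST 212195_at (-0.21 to 0.032). Replicate numbers were not taken as pairs, as they do not name a shared culture or day. Residual correlations of same-numbered arrays were -0.01, 0.13 and 0.15, and those of unlike-numbered arrays ran from -0.155 to 0.020. Whether same-numbered arrays shared an effect was not tested. With a replicate block 5 of the 19 were higher and 0 lower, 506 probe sets were higher and 573 lower on the array, against 441 and 485 without it, and 1 gp130 gene, SOCS2, was lower (-0.33). The signal limits decreases: 7 of the 19 probe sets had both means within the reference range.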
